A study of Mus musculus with 18 samples.

Results

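The genes of respiratory complex I were followed in RNA sequencing of whole mouse testis across 18 libraries. They were the rows of the expression table whose symbol begins with Nduf and goes on with a, b, c, s, v or ab and a number, the Ndufaf assembly factors being left out. This rule found 41 of 20985 rows. All mice were of the ICR strain and 10 weeks old, and the 18 libraries fell into 6 groups of 3. Mice without the high-fat diet were either controls or had AOS at 10 mg/kg. Mice on the high-fat diet had the diet alone (HFD), the same dose of AOS (HFD-AOS), or FMT of 1 of 2 kinds, which the labels name by the AOS dose (HFD-AOSFMT) and by the control (HFD-conFMT). AOS and FMT stand here as in the labels. The study's title asks whether FMT acts on testis damage caused by a high-fat diet. Whether the 3 libraries of a group are 3 animals is not in the labels, so the p-values measure only the spread between these libraries, which may be technical.

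Complex I is the large L-shaped enzyme at the entry of the mitochondrial respiratory chain. Its matrix arm takes electrons from NADH in the N module and passes them along iron-sulfur clusters to ubiquinone in the Q module, while its membrane arm pumps protons. Core subunits carry out the chemistry, and accessory subunits build around them and are needed for assembly and stability. In the testis, meiotic and later germ cells draw much of their energy from mitochondrial respiration of lactate supplied by Sertoli cells, and sperm carry their mitochondria in a sheath around the midpiece.

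The rule is wider than the enzyme, and the term complex I genes is used here for all genes that it found. Of the 41 genes, 7 encode nuclear core subunits and 29 encode accessory subunits, 12 of them named B or C. Ndufa4 is now counted as a subunit of complex IV, and its relative Ndufa4l2 is a hypoxia-induced gene outside complex I. Ndufb4b, Ndufb4c and Ndufa11b are copies of other members, and reads can be split uncertainly between such copies. The GENCODE M21 annotation lists Ndufb4c and Ndufa11b as processed pseudogenes and gave no single entry for Ndufb4b. Ndufb4b had a mean of 0.968 FPKM, ranged from 0 to 2.42 FPKM and fell under the minimum mean of 1 FPKM, so 40 genes were tested. The 7 subunits encoded by mitochondrial DNA were looked for by their mt-Nd symbols. Of these, 0 were found among the rows used, so they could not be analysed here. FPKM scales fragments to transcript length and to the size of the library.

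The main pattern was a low level in the control libraries. Each gene's log2(FPKM + 1) was centred on its own mean over the 18 libraries and averaged over the 40 genes. The control libraries stood at -0.103, -0.112 and -0.125 and the HFD libraries at -0.0011, -0.140 and -0.0835. The AOS libraries stood at 0.0364, -0.0080 and 0.0016, and the HFD-AOS libraries at -0.0162, 0.0554 and 0.0862. The 3 HFD-AOSFMT libraries (0.0187, 0.0536 and 0.0940) and the 3 HFD-conFMT libraries (0.0207, 0.0945 and 0.127) lay above all control and HFD libraries. Control had the lowest group mean for 22 of the 40 genes and HFD for 7, whereas HFD-conFMT had the highest for 15 and the lowest for 0. The heatmap shows this gene by gene.

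**Figure D1:**
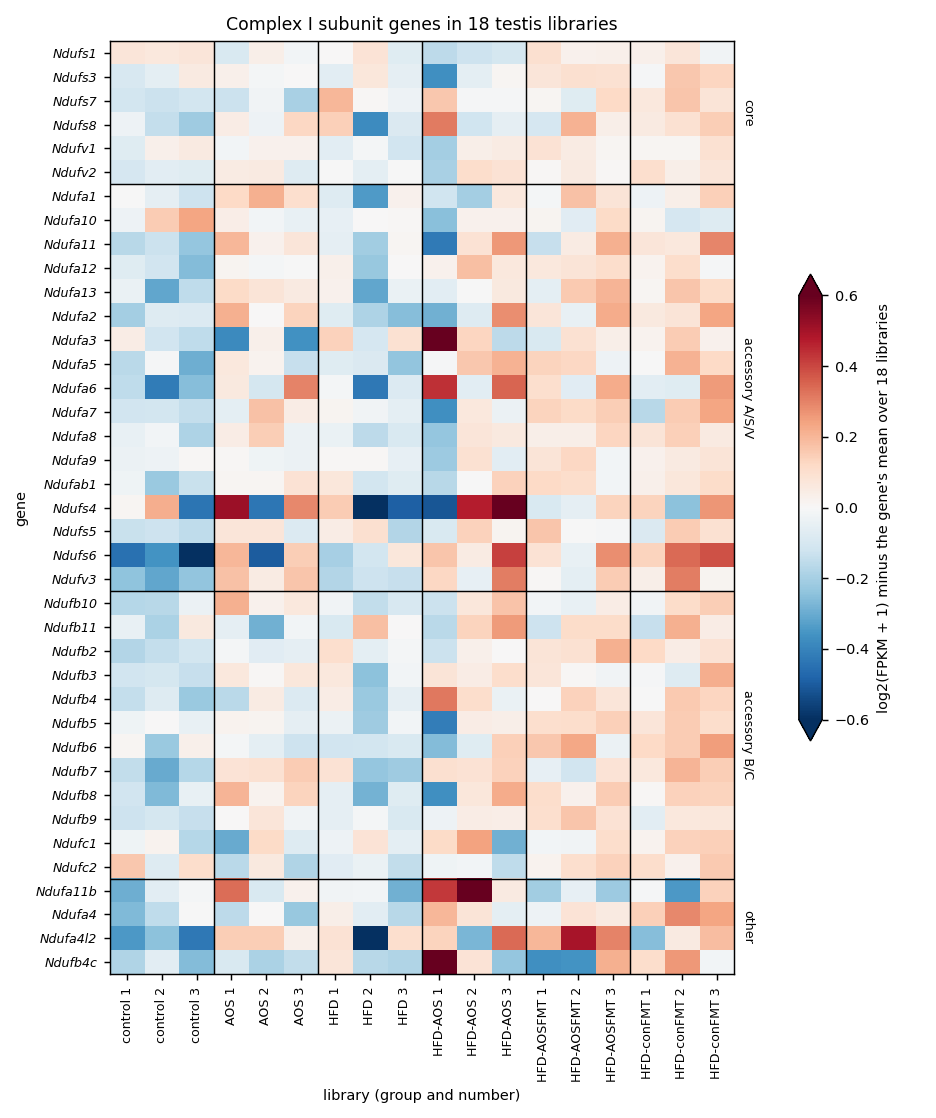
Heatmap of 39 tested complex I genes (rows, ordered by role) in the 18 libraries (columns, ordered by group). Color gives log2(FPKM + 1) minus the gene's mean over the 18 libraries. The 3 control columns are blue for most rows, and the first HFD-AOS column mixes the deepest blues and reds.

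**Figure D2:**
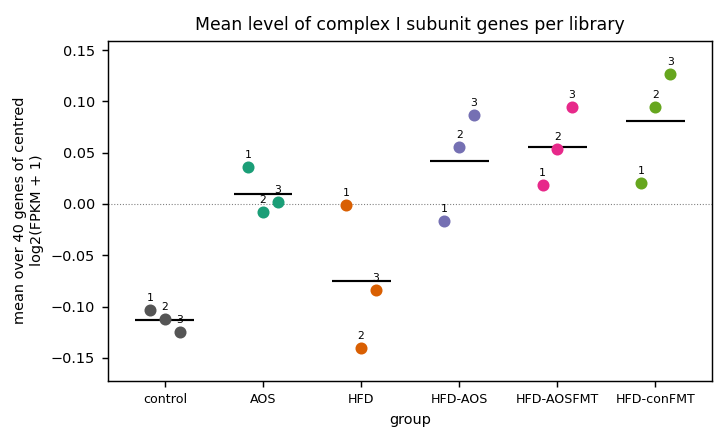
Mean over the 40 tested complex I genes of centred log2(FPKM + 1) in each library (points, numbered by replicate), with group means as bars. The control libraries lie between -0.125 and -0.103, and the 3 HFD-conFMT libraries between 0.0207 and 0.127.

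These shifts were small, and other measured features of the libraries moved with them. Complex I transcripts are short, with a median length of 760.5 bases against 2563 for all genes tested, and the median short gene was higher than control in every other group. The 1366 other genes with transcripts under 1000 bases had a median log2 fold change of 0.139 in HFD-conFMT against control, where complex I genes had 0.193. After a spline adjustment of each library for transcript length and GC content, that median for complex I genes was 0.0616, with 30 of 40 genes higher and 0 called. Of all 12851 genes in the adjusted fit, 15 were called there, so few genes of any kind passed. The summed level of 10 elongating spermatid markers was 52100 to 58400 FPKM in control, 48800 to 63300 in HFD and 60400 to 72900 in the other groups. Markers of germ, Sertoli and Leydig cells were all above 0, and in whole tissue fewer cells of a type and less RNA per cell cannot be told apart. The part of cell makeup in the complex I values was not tested.

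Some libraries also stood apart. Epididymal markers, which testis should lack, summed to 161 FPKM in control 3, 107 in HFD-conFMT 2 and 12 in HFD-conFMT 3, against 6.1 or less in the other libraries, with 2 of 7 markers at 0 throughout. HFD-AOS 1 had the largest median absolute deviation from its group over all genes, at 0.0808. It held the lowest value of all 18 libraries for 14 complex I genes, 5 of the 7 core subunits among them, and the highest value for 5. Ndufb4c read 105.5 FPKM there against at most 43.2 elsewhere, and the membrane-arm subunit Ndufa3 read 253 against at most 184. Adipocyte markers also summed higher in HFD-conFMT, at 38.2 to 45.2 FPKM, than the 14.5 to 35.9 of the other groups. Macrophage and leukocyte markers summed to 41.5 to 46 FPKM in HFD-conFMT, 36.4 to 40.4 in control and 33.7 to 36.2 in HFD. Leydig cell markers summed to 2590 to 3530 FPKM in AOS and 3540 to 4060 in control, with 0 of 8 higher in AOS (median log2 fold change -0.322) and 2 of 8 in HFD-conFMT (-0.143). Blood markers summed to 99.8 to 141 FPKM in control and 66.4 to 98.8 in AOS, and endothelial markers to 6.33 to 7.36 in control and 5.91 to 6.09 in AOS. Neither was particular to AOS. Endothelial sums were 5.5 to 6.32 in HFD, 5.5 to 6.01 in HFD-AOS and 5.82 to 6.08 in HFD-conFMT, but HFD-AOSFMT overlapped control. Blood sums were 60.2 to 87.5 in HFD-AOS, while HFD and both FMT groups overlapped control. The part of these libraries and markers in the results was not tested.

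By level per transcript length, the accessory subunits spanned a wide range. Ndufa12, an accessory subunit of the matrix arm, had the highest mean at 379 FPKM (315 to 428 over the 18 libraries), followed by the small membrane-arm subunits Ndufc1 at 339 and Ndufb4 at 233 FPKM. The lowest means were those of Ndufb4b, of Ndufa11b at 4.66 FPKM and of the membrane-arm subunit Ndufa11 at 7.7 FPKM. The median of the tested genes was 61.1 FPKM. The widest coefficient of variation over libraries among tested genes was 46%, for Ndufb4c. Ndufs4, an accessory subunit next to the N module, also varied widely, from 11.4 to 32.3 FPKM (coefficient of variation 29.2%), with groups that overlapped in all 9 comparisons between groups. All 41 genes together made up 0.539 to 0.61% of a library's summed FPKM.

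Core subunits had smaller median differences from control than accessory subunits in all 5 comparisons, and they also have longer transcripts. In HFD-conFMT against control the median log2 fold change was 0.127 over 7 core and 0.196 over 29 accessory subunits, with 6 of 7 and 28 of 29 higher. In HFD-AOS against control the core median was -0.0434 with 3 of 7 higher, and the accessory median was 0.14 with 23 of 29 higher. Median transcript lengths were 1623 bases for core and 704 for accessory genes. After the length and GC adjustment the 2 medians were 0.0324 and 0.0666 for HFD-conFMT, and -0.0699 and 0.0396 for HFD-AOS. The difference between the 2 sets is given as a description and was not tested.

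In the N module, where NADH is oxidised, Ndufs1 was the core subunit that passed the test. Ndufs1 encodes the largest core subunit, which carries several iron-sulfur clusters. Its control values were 31.8, 31.6 and 31.8 FPKM and its HFD-AOS values 27.0, 27.6 and 27.9 FPKM. All 3 HFD-AOS values lay below every control value, and below every value of the other groups too. It fell by 0.199 ± 0.046 (SE) on the log2 scale, an adjusted p = 0.0364 by limma with Benjamini-Hochberg adjustment, and was the 1 complex I gene called lower in HFD-AOS, where 1.5% of all genes were called lower. The adjusted p was 0.0774 without HFD-AOS 1 and 0.117 after the length and GC adjustment, at a log2 fold change of -0.15. Ndufs1 overlaps Eef1b2 on the opposite strand, and the sources used here do not give the strand setting of the counting, so shared reads cannot be told apart. The same holds for Ndufs3 with Kbtbd4, Ndufa3 with Tfpt, Ndufb6 with Smim27, Ndufa2 with Tmco6, Ndufa11 with Vmac and Ndufa4l2 with Shmt2.

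The other N-module core subunits did not pass in any comparison. Ndufv1, which binds NADH and FMN, was at 44.9 ± 2.09 FPKM (SD, n = 3) in control, 42.8 ± 1.59 in HFD and 46.0 ± 1.52 in HFD-conFMT. Ndufv2, which carries an iron-sulfur cluster beside it, read 112, 115 and 114 FPKM in control and 129, 123 and 126 in HFD-conFMT. These 2 sets of Ndufv2 values did not overlap, at a log2 fold change of 0.15 ± 0.062 (SE; limma adjusted p = 0.21).

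In the Q module, where ubiquinone is reduced, Ndufs7 had the smallest p-value of that module's core subunits in each comparison of a diet group with control. Ndufs7 carries the last iron-sulfur cluster before ubiquinone. It read 36.1, 35.7 and 36.2 FPKM in control, 45.1, 39.3 and 38.3 in HFD and 41.0, 44.0 and 41.3 in HFD-conFMT. Both of these diet groups lay wholly above control. So did HFD-AOS, at 43.9, 38.9 and 38.9 FPKM, and HFD-AOSFMT, at 39.5, 37.2 and 42.6 FPKM. AOS without the diet, at 35.7, 38.6 and 34.1 FPKM, overlapped control. The log2 fold changes against control were 0.18 ± 0.068 for HFD (limma adjusted p = 0.691) and 0.22 ± 0.068 for HFD-conFMT (limma adjusted p = 0.101). Neither passed.

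Ndufs3 and Ndufs8, also of the Q module, passed in no comparison. Ndufs3 was at 72.3 ± 3.95 FPKM in control, 78.7 ± 0.748 in HFD-AOSFMT and 67.6 ± 9.17 in HFD-AOS, whose first library read 57.2. Ndufs8, which carries 2 iron-sulfur clusters, was at 32.3 ± 2.17 FPKM in control and 37.9 ± 1.26 in HFD-conFMT, without overlap and with a limma adjusted p = 0.331.

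Among the accessory subunits of the N module, Ndufs6 and Ndufv3 had the clearest differences from control. Ndufs6 binds zinc and is needed late in assembly of the NADH-oxidising arm. Control libraries read 76.1, 81.1 and 68.0 FPKM, HFD-AOS libraries 117, 108 and 139, and HFD-conFMT libraries 114, 132 and 136. All 6 of these treated values lay above all control values. Ndufs6 rose in HFD-AOS, by 0.68 ± 0.15 on the log2 scale (1.6-fold, limma adjusted p = 0.0358), and in HFD-conFMT, by 0.76 ± 0.15 (1.69-fold, limma adjusted p = 0.0282). In HFD-AOSFMT the values of 111, 100.8 and 127 FPKM also lay above control, at a log2 fold change of 0.58 ± 0.15 (limma adjusted p = 0.0923). In AOS, libraries 1 and 3 read 119.6 and 115 FPKM, but library 2, at 73.2, lay inside the control range. The log2 fold changes after the length and GC adjustment were 0.555 in HFD-AOS and 0.576 in HFD-conFMT, with adjusted p-values of 0.137 and 0.156. Ndufs6 overlaps Mrpl36 (mean 21.8 FPKM) on the opposite strand.

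Ndufv3 encodes a small accessory subunit at the tip of the N module. Its control values, 33.5, 31.9 and 33.7 FPKM, lay below every one of the other 15 libraries, which was true of 1 other tested complex I gene, Ndufb9. The share of all genes for which this held was not counted, so the pair is a description only. It read 35.2, 36.5 and 36.2 FPKM in HFD, 45.1, 41.3 and 44.8 in AOS, and 43.5, 38.5 and 49.5 in HFD-AOS. HFD lay just above control, and AOS and HFD-AOS lay above HFD. Both FMT groups lay above HFD as well, with HFD-AOSFMT between 38.2 and 44.4 FPKM, so this was not particular to AOS. Ndufv3 rose by 0.39 ± 0.086 in HFD-AOS (limma adjusted p = 0.0339) and by 0.38 ± 0.086 in HFD-conFMT (limma adjusted p = 0.0392), whose libraries read 40.9, 49.6 and 40.3 FPKM. In AOS its log2 fold change of 0.39 ± 0.086 was the same size and missed the threshold (limma adjusted p = 0.094), because the adjustment runs over each comparison's own p-values. The log2 fold change after the length and GC adjustment was 0.363 in HFD-AOS (adjusted p = 0.0857) and 0.372 in AOS (adjusted p = 0.16).

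Several membrane-arm subunits also passed. Ndufb7, on the side of the intermembrane space, read 88.7, 79.5 and 87.4 FPKM in control, 105, 105 and 108 in HFD-AOS and 103, 114 and 109 in HFD-conFMT. It rose in both, by 0.31 ± 0.074 (limma adjusted p = 0.0398) and by 0.35 ± 0.074 (limma adjusted p = 0.0329). The AOS values of 104, 105 and 109 FPKM lay above control as well, at 0.32 ± 0.074 (limma adjusted p = 0.107), while HFD libraries 2 and 3, at 83.5 and 84.8 FPKM, overlapped control and HFD library 1 read 105. After the length and GC adjustment the log2 fold changes were 0.182 and 0.155 in HFD-AOS and HFD-conFMT, with adjusted p-values of 0.152 and 0.28.

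Ndufb9 and Ndufb2 were the genes called in HFD-AOSFMT. Ndufb9 is a membrane-arm subunit of the LYR family, which binds the acyl carrier protein Ndufab1. It read 95.2, 96.6 and 94.4 FPKM in control, 111, 117 and 110.2 in HFD-AOSFMT and 99.5, 108 and 109 in HFD-conFMT, so that the control libraries were the lowest of all 18. It rose by 0.24 ± 0.042 in HFD-AOSFMT (1.18-fold, limma adjusted p = 0.0364). Ndufb2, a small membrane-arm subunit, read 39.7, 40.7 and 41.7 FPKM in control, 47.6, 48.1 and 52.3 in HFD-AOSFMT and 49.0, 46.5 and 47.9 in HFD-conFMT. It rose by 0.27 ± 0.052 in HFD-AOSFMT (limma adjusted p = 0.0425) and by 0.23 ± 0.052 in HFD-conFMT (limma adjusted p = 0.0406), and neither group overlapped control. After the length and GC adjustment these values became 0.112 for Ndufb9 in HFD-AOSFMT and, for Ndufb2, 0.109 and 0.024, with adjusted p-values of 0.361, 0.471 and 0.904. Ndufb2 overlaps Braf on the opposite strand, and both genes overlap a protein-coding model on their own strand.

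Ndufab1, the mitochondrial acyl carrier protein, did not pass. It read 61.1, 53.1 and 56.6 FPKM in control and 63.6, 65.3 and 67.2 in HFD-conFMT, without overlap, at 0.20 ± 0.072 (limma adjusted p = 0.152).

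The 2 members outside complex I behaved differently from each other. Ndufa4 read 41.1, 44.6 and 49.5 FPKM in control, 54.8, 60.8 and 58.7 in HFD-conFMT and 48.6, 52.5 and 51.5 in HFD-AOSFMT. It rose in HFD-conFMT, by 0.36 ± 0.08 (limma adjusted p = 0.0383), or 0.186 after the length and GC adjustment (adjusted p = 0.308). Its values in HFD-conFMT lay above those of every other group but for HFD-AOS 1, at 57.2 FPKM. Ndufa4l2 was highest in HFD-AOSFMT, at 30.2, 37.3 and 32.4 FPKM against 20.4, 21.9 and 19.2 in control. These did not overlap, at 0.67 ± 0.18 (limma adjusted p = 0.0954), and HFD-conFMT, at 21.7, 27.2 and 29.9 FPKM, lay between them and overlapped control.

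**Figure D3:**
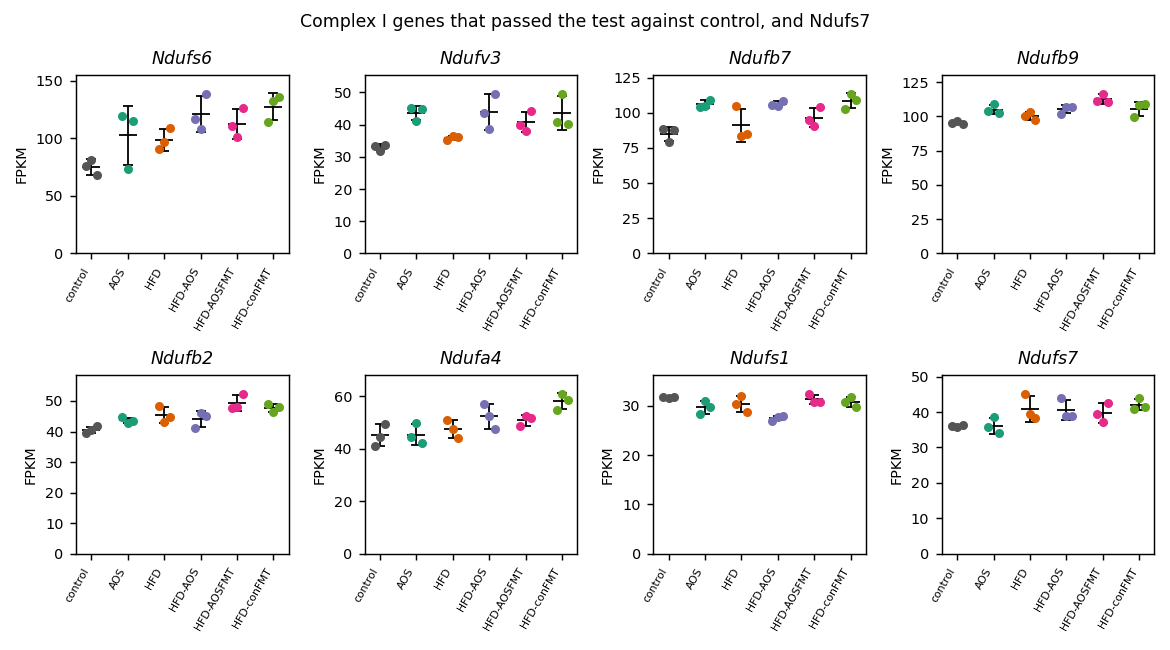
Level in FPKM of the 7 genes of the rule called in at least 1 comparison with control, Ndufa4 of complex IV among them, and of Ndufs7. Points are libraries in the 6 groups, bars the mean and SD (n = 3), and axes start at 0. The control values of Ndufv3 and Ndufb9 lie below all other libraries, and those of Ndufs1 lie above the 3 HFD-AOS values.

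Promoter sequences were looked at for letters shared by genes that moved against control and genes that did not. RefSeq windows of GRCm38.p6, from 250 bases before to 50 after a start site, were found for 34 of the 41 genes. Both strands were searched for 3 short patterns. The first is GCATGCG, part of the site of nuclear respiratory factor 1 (NRF1), a regulator of respiratory chain genes. The others are CCGGAAG, bound by ETS factors such as GABP, and GATGGCG, part of a site of YY1. The patterns for NRF1 and YY1 are shorter than the forms planned at first. GCATGCG was in 3 of 34 (8.8%, against 4% of 27025 genes with a window), CCGGAAG in 4 (11.8% against 9.9%) and GATGGCG in 6 (17.6% against 4%). No gene held more than 1 of the patterns, and matches of GCATGCG on the 2 strands can overlap each other. The lines below give 30 bases on the gene's strand, 5′ to 3′, with the match in capitals. Ndufs6 and Ndufb7 are shown as the called genes with a match. The other genes with the ETS letters, Ndufb6, Ndufs3 and Ndufs8, were not called and are not printed. Also shown are 4 other YY1 genes, which hold the YY1 letters of Ndufs6 and were not called. Ndufa7, the last YY1 gene, was not called either and is not printed. Its match begins at base -99 or -172, depending on the start site. Ndufa11 is shown as 1 of the 3 genes with the NRF1 letters, none of which was called.
Ndufs6, YY1, chr13:73328433-73328462, minus strand: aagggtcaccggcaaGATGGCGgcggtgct
Ndufs7, YY1, chr10:80249464-80249493, plus strand: gccgaggccaaGATGGCGgcgctggcgggt
Ndufs4, YY1, chr13:114388045-114388074, minus strand: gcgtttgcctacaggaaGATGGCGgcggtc
Ndufa9, YY1, chr6:126849095-126849124, minus strand: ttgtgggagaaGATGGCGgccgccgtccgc
Ndufc1, YY1, chr3:51408913-51408942, minus strand: ctgcggaacaaGATGGCGccgtccgtagtg
Ndufb7, ETS, chr8:83566727-83566756, plus strand: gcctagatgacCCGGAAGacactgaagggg
Ndufa11, NRF1, chr17:56717693-56717722, plus strand: ctgcactgcgcGCATGCGcgcacgccttgt

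In these 5 YY1 windows the match begins 25 to 38 bases after the start site. The letters GATGGCG contain ATG, and whether the matches lie at the start of coding sequence was not checked. Ndufs6 rose in 2 groups, whereas Ndufs7, Ndufs4 and Ndufc1 passed in none. Ndufa9, a subunit where the matrix and membrane arms meet, passed in none and stayed between 67.8 and 73.8 FPKM in all group means. The called genes Ndufb2, Ndufb9, Ndufv3, Ndufa4 and Ndufs1 are not among the genes with a match. A match describes the letters only and shows no binding.

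Counted over all 40 tested genes, the comparison of HFD with control, which asks what the diet did alone, called 0 genes in either direction (0% of all genes either way). At an unadjusted p under 0.05 there were 3 higher and 0 lower, against 2.91% and 3.84% of all genes. The values of 7 genes lay wholly above control and of 0 wholly below, against 5.17% and 7.35% of all genes, and the 7 became 4 after the length and GC adjustment and 15 without HFD 2. The median log2 fold change was 0.0561, with 29 of 40 higher (45.2% of all genes), and it was 0.0002 with 20 higher without HFD 1. Among the genes of smallest p were Ndufb2, Ndufs7 and Ndufs6, all higher without overlap, and 2 lower genes, the membrane-arm subunits Ndufc2 (54.4 ± 4.74 to 48.9 ± 1.93 FPKM) and Ndufa10 (29.7 ± 2.82 to 26.9 ± 0.572 FPKM), with limma adjusted p-values from 0.651 to 0.777. Ndufb9, at 100.1 ± 2.85 against 95.4 ± 1.14 FPKM, was the sixth.

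AOS against control, which asks what AOS did without the diet, also called 0 of the 40 genes, where 0.0153% of all genes were called higher and 0.00763% lower. At an unadjusted p under 0.05 there were 14 higher and 1 lower, against 5.58% and 10.2% of all genes. The values of 17 genes lay wholly above control and of 1 wholly below, against 7.96% and 15.2% of all genes, and the 17 became 10 after the length and GC adjustment. The median was 0.136 with 33 of 40 higher (40.2% of all genes), where short genes had 0.0684, and it was 0.093 without control 3. After the length and GC adjustment it was 0.0793 with 29 of 40 higher, the largest adjusted median of the 5 comparisons with control. Besides Ndufv3, Ndufb7 and Ndufb9, the genes of smallest p included Ndufb10 (95 ± 5.35 to 111 ± 7.91 FPKM) and Ndufa13 (106 ± 10.1 to 127 ± 2.71 FPKM), both of the membrane arm and both without overlap, with limma adjusted p-values of 0.169 and 0.193. Ndufa13 overlaps Tssk6 on the opposite strand, a gene with a mean of 262 FPKM, and shared reads cannot be told apart.

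HFD-AOS against control called 3 genes higher (Ndufs6, Ndufv3 and Ndufb7), where 0.984% of all genes were, and Ndufs1 lower. At an unadjusted p under 0.05 there were 15 higher and 2 lower, against 7.62% and 13.4%. The median was 0.146 with 30 of 40 higher (41.2% of all genes), against 0.105 for short genes. The values of 11 genes lay wholly above control and of 1 wholly below, against 7.13% and 14.1% of all genes, and the 11 became 5 after the length and GC adjustment. Next by p came Ndufa12 at 402 ± 22.9 against 341 ± 22.8 FPKM and the LYR-family subunit Ndufa6 at 126 ± 22.4 against 86.9 ± 8.15 FPKM (limma adjusted p = 0.0567 and 0.066). Without HFD-AOS 1, 0 genes were called, the median was 0.169, and 24 genes lay wholly above control, a count that fewer libraries also make easier. Without control 3 and HFD-conFMT 2, or without control 2 or control 3 alone, 0 were called, 1 was without control 1, and 2 were without AOS 3.

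HFD-AOSFMT against control called Ndufb9 and Ndufb2 higher and 0 genes lower, where 0.244% and 0.137% of all genes were called. At an unadjusted p under 0.05 there were 15 higher and 0 lower, against 7.51% and 10%. The median was 0.161 with 36 of 40 higher (44.2% of all genes), against 0.127 for short genes. The values of 20 genes lay wholly above control and of 0 wholly below, against 11% and 15.4% of all genes, and the 20 became 8 after the length and GC adjustment. HFD-conFMT against control called 5 genes higher, Ndufs6, Ndufb7, Ndufa4, Ndufv3 and Ndufb2, and 0 lower, where 1.24% and 0.847% were called. At an unadjusted p under 0.05 there were 21 higher and 1 lower, against 8.68% and 10.2%. Its median was 0.193 with 38 of 40 higher (46.7% of all genes), and 27 genes lay wholly above control and 0 wholly below, against 12.7% and 15.9% of all genes. After the length and GC adjustment the 27 became 8. Without control 3 and HFD-conFMT 2 the medians were 0.161 and 0.167 with 0 genes called in either comparison, and 0 were called without any single control library. Without HFD-conFMT 2 or HFD-conFMT 3 there were likewise 0 in both comparisons. HFD-AOSFMT also had 0 without any one of its own libraries, AOS 1, AOS 3 or HFD 3, and 1 without HFD-conFMT 1. HFD-conFMT had 1 without HFD-conFMT 1, and 3 without AOS 3 or HFD-AOSFMT 2. All 5 comparisons with control share its libraries, so they are not independent of each other.

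**Figure D4:**
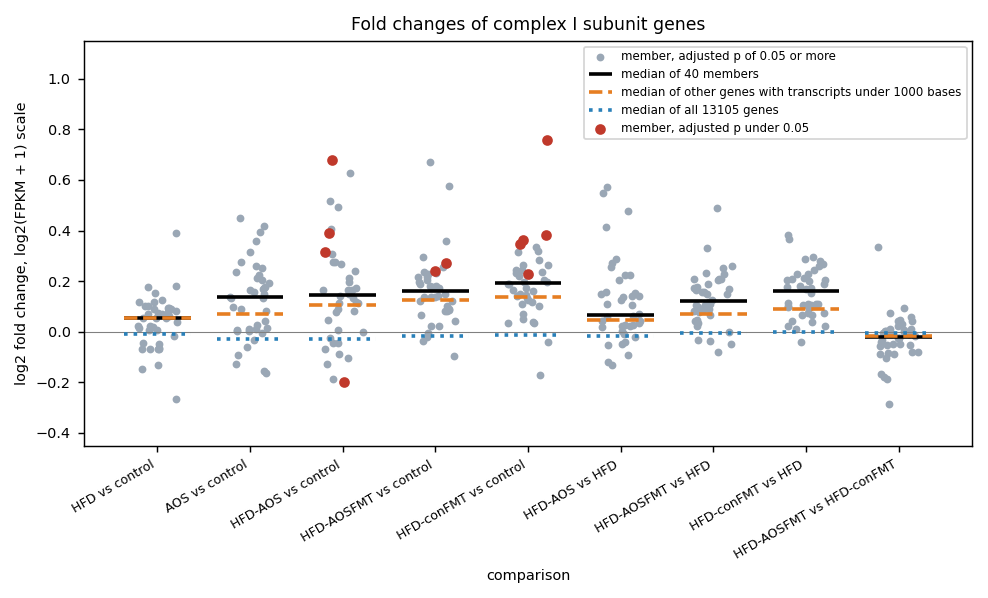
Log2 fold change on the log2(FPKM + 1) scale of the 40 tested complex I genes in the 9 comparisons (points, red where the adjusted p was under 0.05). Black bars are their medians, orange dashes the median of 1366 other genes with transcripts under 1000 bases, and blue dots the median of all 13105 genes. In every comparison but the last, the complex I median lies above both others, from 0.0561 to 0.193.

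Against HFD, which asks what AOS or FMT did on the diet, 0 complex I genes were called in any of 3 comparisons, where 0%, 0.0229% and 0% of all genes were called higher and 0% lower in each. HFD-AOS had 7 genes higher and 1 lower at an unadjusted p under 0.05, against 4.89% and 7.81% of all genes, and a median of 0.0671 with 32 of 40 higher (43.9% of all genes). HFD-AOSFMT had 12 and 0, against 5.23% and 4.59%, and a median of 0.122 with 35 of 40 higher (47.3%). HFD-conFMT had 12 and 0, against 7% and 5.26%, and a median of 0.161 with 39 of 40 higher (49.2%). Values lay wholly above HFD for 3 genes in HFD-AOS, 15 in HFD-AOSFMT and 15 in HFD-conFMT, against 4.9%, 8.34% and 10.3% of all genes. They lay wholly below it for 1, 0 and 0 genes, against 8.49%, 8.88% and 9.83%. The count in HFD-AOS changed when single libraries were left out: without HFD-AOS 1 it was 15, at a median of 0.115, and it was 8 without HFD-AOS 2 or HFD-AOS 3. Without HFD 1 the 3 counts were 9, 24 and 26, and without HFD-conFMT 1 the last was 24. Fewer libraries also make such counts easier to reach. After the length and GC adjustment the 3 counts were 3, 6 and 9. Short genes had medians of 0.0471, 0.07 and 0.0915, and the adjusted complex I medians were 0.0423, 0.0711 and 0.06. The HFD libraries were not alike, since HFD 1 averaged -0.0011 over complex I genes and HFD 2 averaged -0.140, the lowest of all libraries, with the lowest elongating spermatid sum as well (48800 FPKM).

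Ndufa5 and Ndufb6 lay wholly above HFD in both FMT groups. Ndufa5, a matrix-arm subunit of the Q module, read 109, 108 and 97.4 FPKM in HFD, 126, 125 and 113 in HFD-AOSFMT and 115, 133 and 125 in HFD-conFMT. Ndufb6, a membrane-arm subunit, read 22.3, 22.4 and 22.7 FPKM in HFD, 27.2, 28.6 and 23.6 in HFD-AOSFMT and 26.4, 27.0 and 28.98 in HFD-conFMT. Their limma adjusted p-values were 0.447 for both in HFD-AOSFMT, and 0.284 and 0.253 in HFD-conFMT. The other genes of smallest p were Ndufb9, Ndufa4l2, Ndufc2 and the membrane-arm subunit Ndufa1 for HFD-AOSFMT, and Ndufa4, Ndufb7, Ndufv3 and the N-module subunit Ndufa2 for HFD-conFMT. All were higher than in HFD, with limma adjusted p-values from 0.193 to 0.454. In HFD-AOS the smallest p was that of Ndufv3 (limma adjusted p = 0.251), followed by the copy Ndufa11b, at 6.3 ± 1.43 against 4.19 ± 0.543 FPKM, by Ndufa5, Ndufb7 and Ndufa6, also higher, and by Ndufs1, at 27.5 ± 0.48 against 30.3 ± 1.67 FPKM (limma adjusted p from 0.257 to 0.288).

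No complex I gene passed the test between the 2 FMT groups, a comparison that asks whether the kind of FMT mattered. HFD-AOSFMT against HFD-conFMT called 0 genes, where 0.00763% of all genes were called higher and 0% lower. At an unadjusted p under 0.05 there were 1 higher and 2 lower, against 1.25% and 1.87%, and the median was -0.0209 with 15 of 40 higher (47.1% of all genes). Values did not overlap for 2 higher genes and 1 lower gene, against 4.68% and 5.39%. Those 3 were Ndufb9 and Ndufa4l2, at log2 fold changes of 0.10 ± 0.042 and 0.336 ± 0.18, and Ndufa4, at -0.19 ± 0.08 (limma adjusted p = 1 for each). Ndufb7, at -0.17 ± 0.074, was second by p and overlapped. Ndufs7 and Ndufs6 came next after these, at -0.082 ± 0.068 and -0.179 ± 0.15. The test of whether AOS acted differently on the diet than off it called 0 complex I genes and 0% of all genes in either direction, with 0 complex I genes at an unadjusted p under 0.05, against 3.62% and 3.24%, and a median of -0.0379 with 15 of 40 above 0 (53% of all genes). The 6 genes of smallest p there were Ndufb2, Ndufa7, Ndufc2, Ndufs3, Ndufa3 and Ndufab1, with limma adjusted p-values from 0.758 to 0.827. An F test over the 6 groups called 0 as well, against 0.328% of all genes, and gave 19 of 40 at an unadjusted p under 0.05, against 18% of all genes, the smallest being Ndufv3, Ndufb7, Ndufb9, Ndufb2, Ndufs6 and Ndufa4 (limma adjusted p from 0.106 to 0.126).

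**Figure D5:**
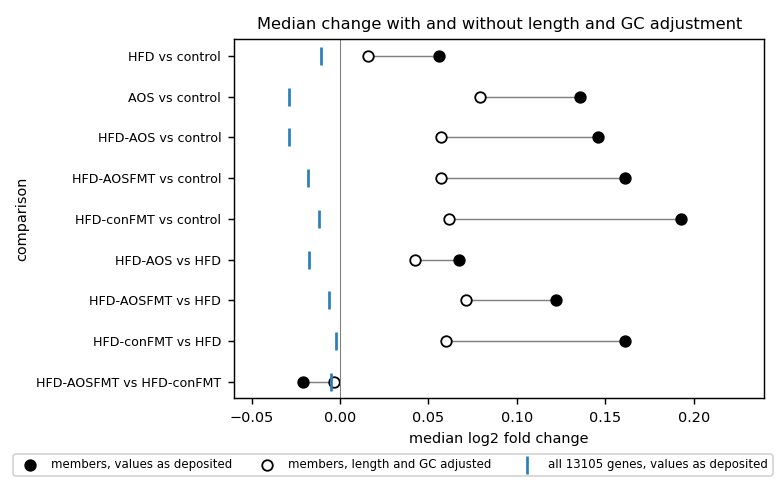
Median log2 fold change of the complex I genes in each comparison, from the values as deposited (filled) and after adjusting each library for transcript length and GC content (open), with the median of all 13105 genes as ticks. The adjusted medians lie between -0.0033 and 0.0793, and for HFD-conFMT against control the value goes from 0.193 to 0.0616.

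Complex I genes varied together only loosely once group means were removed. The median Pearson r between 2 of the genes over the 18 libraries was 0.15, and 61.9% of pairs were above 0. These libraries share depth and composition, so the values are descriptions. Ndufb10 (r = 0.74), Ndufa13 (0.71) and Ndufa11 (0.70) were among those that followed the mean of the others most closely. Ndufb4c (-0.44), Ndufs1 (-0.36), Ndufa3 (-0.31) and Ndufc1 (-0.29) went against it.

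Other respiratory chain genes gave a frame for these values in HFD-conFMT against control. In that comparison 46.7% of all genes were higher, and 1.24% were called higher. All 9 complex III genes, all 14 complex IV genes and all 15 complex V genes tested were higher, with medians of 0.144, 0.231 and 0.122, and 1 gene of each passed. These were the complex III core protein Uqcrc1 (183 ± 0.745 against 166 ± 3.17 FPKM), the nuclear complex IV subunit Cox5b (185 ± 27.4 against 139 ± 10.8) and the ATP synthase coupling factor Atp5j (216 ± 7.08 against 178 ± 3.76), with limma adjusted p-values of 0.0417, 0.0335 and 0.0235. Of 4 complex II genes 3 were higher and 0 passed (median 0.0607). Median transcript lengths were 547, 560.5 and 680 bases for complexes III, IV and V, and 2065.5 for complex II. HFD-conFMT was the comparison with control in which most of these genes were higher, with HFD-AOSFMT close to it. In HFD-AOSFMT against control, 8 of 9 complex III genes (median 0.148) and 14 of 14 complex IV genes (0.19) were higher. So were 13 of 15 complex V genes (0.0895) and 3 of 4 complex II genes (0.104), with 0 called. In HFD-AOS against control, where complex I genes had a median of 0.146, complex IV had 12 of 14 genes higher (0.157), but complex III had 6 of 9 (0.00389), complex V 5 of 15 (-0.0158) and complex II 1 of 4 (-0.0542), with 0 called. In AOS against control the medians were 0.166 for complex IV, 0.0475 for complex III, 0.0167 for complex V and 0.0289 for complex II, against 0.136 for complex I, again with 0 called. Of all genes, 44.2% were higher in HFD-AOSFMT, 41.2% in HFD-AOS and 40.2% in AOS against control. The shares of all genes called there were 0.244%, 0.984% and 0.0153% higher and 0.137%, 1.5% and 0.00763% lower. The differences between the complexes were not tested.

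Of 18 tested factors that assemble complex I, 15 were higher in HFD-conFMT than in control (median 0.0563), 1 rose and 1 fell. Among all genes 46.7% were higher, 1.24% were called higher and 0.847% lower. Ndufaf8, which works on the subunit Ndufs7 during assembly, rose from 46 ± 1.81 to 61.7 ± 1.92 FPKM (limma adjusted p = 0.0175), and Ecsit, part of the assembly complex of the membrane arm, fell from 27.2 ± 0.569 to 21.4 ± 1.46 FPKM (limma adjusted p = 0.0235). Of 8 regulators of mitochondrial biogenesis tested, 3 were higher and 0 passed (median -0.0573). Outside the respiratory chain, 64 of 77 mitochondrial and 78 of 82 cytosolic ribosomal protein genes were higher, with medians of 0.12 and 0.206, and 3 and 16 of them rose. Their median transcript lengths were 1280 and 705 bases.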

How the data were processed

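RNA sequencing of mouse testis was analysed from 1 deposited table with 1 value per gene and library. Per the labels' protocols, RNA was extracted from frozen testis with Trizol and a column kit. The submitters' processing notes name Bowtie 0.12.2 and the mm10 genome. The sources used here do not give the counting tool, the annotation or the strand setting. The deposited values carry no unit in their header and were read as FPKM, since library sums differ (588081 to 637005) and the smallest step falls with transcript length (Spearman rho -0.75 over 1318 genes). Absolute depth is unknown, so no counting intervals are given. Between 12996 and 13221 genes reached 1 FPKM per library.

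Groups came from the labels. Repeated symbols (6 rows) were dropped. Values were taken as log2(FPKM + 1), a scale that understates changes of low genes. The 13105 genes whose mean reached 1 FPKM were fitted with limma 3.58.1 (R 4.3.3), with 6 group means, a mean-variance trend and 12 residual degrees of freedom. Two-sided p-values were adjusted by Benjamini-Hochberg over all genes, with a threshold of 0.05. The procedure was tested on simulated data. Lengths and positions came from GENCODE M21 (GRCm38, the assembly of mm10), with a length for 98.1% of genes tested. The length and GC adjustment removed natural splines (5 degrees of freedom) from each library's deviations.

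Named were the 7 core subunits, Ndufv3, Ndufab1, Ndufa4 and Ndufa4l2, in each comparison the called genes or the 6 of smallest p, the 3 genes of highest and of lowest level, the extremes of spread, and up to 3 genes per other list. Values of 1 gene are not reported here. Genes named for promoter letters or for their place in 1 library were picked once their values had been seen. The genes and lists were chosen with earlier results of these data known. Libraries of 1 number in different groups did not deviate together (2 of 45 pairs had r above 0.1), so numbers were not taken as pairs.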

Additional observations from a re-analysis of the deposited data

How the results depend on the processing

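No value changed direction among the called results. Counts of called complex I genes rest on single libraries and on the fit. For HFD-AOS against control the 4 calls became 1 with no filter on low values, 2 with quantile normalization, and 0 with only the 2 groups fitted, with array weights, with the length and GC adjustment, without control 3 and HFD-conFMT 2, and without these and HFD-AOS 1, and ran from 0 to 5 over fits that left out 1 library. For HFD-AOSFMT against control the 2 calls became 1 with quantile normalization, 1 with only the 2 groups fitted, 5 with array weights and 0 with the length and GC adjustment and without those 2 or 3 libraries, and ran from 0 to 3 over fits that left out 1 library. Under the replicate block, which follows numbers that were not shown to pair the libraries, 1 gene was called there, and no other count moved by over 1.5 times. For HFD-conFMT against control the 5 calls became 2 with no filter, 10 with array weights and 0 with the length and GC adjustment and without those 2 or 3 libraries, and ran from 0 to 6. Of all 12851 genes in the fit with the length and GC adjustment, 17 were called in HFD-AOS, 1 in HFD-AOSFMT and 15 in HFD-conFMT. The loss of calls under it was therefore not particular to complex I genes. With array weights AOS against control called 2 and the F test 2, the latter 1 with libraries centred on their median gene and 0 to 1 over single omissions.

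Medians moved as follows. AOS against control, 0.136, was 0.17 with centred libraries, 0.115 with array weights, 0.0793 with the length and GC adjustment and 0.093 without the 2 or the 3 libraries (0.093 to 0.155 over single omissions). HFD-AOS against control was 0.188 with centred libraries and 0.0572 with the length and GC adjustment (0.0955 to 0.169), HFD-AOSFMT against control 0.057 with that adjustment (0.132 to 0.166), HFD-conFMT against control 0.139 with quantile normalization and 0.0616 with the adjustment, and HFD-conFMT against HFD 0.06 with the adjustment. HFD against control ran from 0.000237 to 0.0718, and the number of genes higher in HFD-AOSFMT than in HFD-conFMT from 6 to 21. Counts of genes wholly above control after the length and GC adjustment were 4, 10, 5, 8 and 8, against 7, 17, 11, 20 and 27, for HFD, AOS, HFD-AOS, HFD-AOSFMT and HFD-conFMT. The share of all genes wholly above control after that adjustment was not counted. The cause of these moves was not tested. The omission of the 3 libraries was added after seeing the data. Unknown depth limits what low genes such as Ndufb4b can show.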
